A study of Homo sapiens with 3 samples.

Results

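The enzymes that add and remove acetyl groups on histones, and the corepressor complexes that carry the removing enzymes to DNA, were described in arrays of 3 Hodgkin's lymphoma (HL) cell lines. The set was given as a list of 42 genes, which held 11 zinc-dependent histone deacetylases (HDAC), 7 sirtuins, 19 corepressor subunits and 5 acetyltransferases, and its measured values played no part in the listing rule. Of these genes, 41 had a transcript cluster, a set of probes that summarises the exons of a gene, among the 22011 clusters of the array. NCOR1, the scaffold of a complex with HDAC3, has no cluster named here. For 35 genes the signal came from a cluster of their own. For MTA1, CHD3, CHD4, GATAD2B, GPS2 and EP300 it came from a cluster that the platform annotation pairs with further genes, so it cannot be assigned to the member alone.

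Each of the lines L-428, HDLM-2 and L-540 was profiled once on Human Exon 1.0ST arrays from total RNA. The descriptions of L-428 and HDLM-2 mention vorinostat, an inhibitor of the zinc-dependent deacetylases, and that of L-540 does not, and no treatment of these arrays is named in the paper. Line and treatment cannot be told apart. Each line is a single established culture without replicate arrays, so all differences are descriptions of 3 hybridizations and no p-value was computed. Values are signal intensities (RMA normalized, linear). Signals above 100 are called expressed, after the threshold that the paper used for its probe sets of endogenous retroviruses. Here it is carried over to transcript clusters, so a signal below 100 is not read as an absence of RNA.

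Acetyl groups on histone tails loosen chromatin and are read by bromodomain proteins, and their removal is a step in gene silencing. HDAC1 and HDAC2 act inside the SIN3, NuRD and CoREST complexes, HDAC3 acts in the NCoR/SMRT complex, and sirtuins are a separate family that uses NAD as cosubstrate. Inhibitors of the zinc-dependent enzymes, to which vorinostat belongs, do not act on sirtuins.

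The arrays differed in their overall level. Their median signals were 9.18 in L-428, 7.16 in HDLM-2 and 7.41 in L-540, and the median log2 difference over all named genes was 0.00 in each pair of lines, as many values were tied. A shift of the arrays to a common median moved all named genes by -0.31 in L-428 minus L-540 and by -0.36 in L-428 minus HDLM-2, and quantile normalization moved their median by -0.22 and -0.23. Of 8 markers of HL cells, each was above 100 in at least 1 line, with 6 in L-428, 6 in HDLM-2 and 3 in L-540. TNFRSF8, which encodes CD30, had 145 in L-428, 158 in HDLM-2 and 158 in L-540. Others were uneven, and the chemokine CCL22 had 10.6 in L-428, 535 in HDLM-2 and 12.2 in L-540, while FSCN1, the actin-bundling protein fascin, had 2075 in L-428, 697 in HDLM-2 and 217 in L-540. None of 7 measured B cell markers, 8 T cell markers, 6 myeloid markers and 5 markers of red cells and platelets exceeded 100, and their summed signals were 55.5 to 67.8, 27.4 to 31.4, 43.2 to 57.4 and 17.1 to 18.3 across the lines.

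Among the members, 3 subunits of deacetylase complexes stood highest in L-428 against both other lines. They were RBBP7, a histone-binding protein of the SIN3 and NuRD complexes, HDAC2, a catalytic subunit of the same complexes, and MTA3, a NuRD subunit. Their promoter windows from RefSeq are shown in GRCh38.p14, from 250 bases before to 50 bases after the annotated start, because these members carry the main difference, and those of RBBP4 and HDAC1, the closest paralogs of RBBP7 and HDAC2, are shown for comparison. Capitals mark matches to the GC box GGGCGG of SP factors, the CCAAT box of NF-Y and the E-box CACGTG on either strand.
RBBP7, chrX:16870313-16870612, minus strand: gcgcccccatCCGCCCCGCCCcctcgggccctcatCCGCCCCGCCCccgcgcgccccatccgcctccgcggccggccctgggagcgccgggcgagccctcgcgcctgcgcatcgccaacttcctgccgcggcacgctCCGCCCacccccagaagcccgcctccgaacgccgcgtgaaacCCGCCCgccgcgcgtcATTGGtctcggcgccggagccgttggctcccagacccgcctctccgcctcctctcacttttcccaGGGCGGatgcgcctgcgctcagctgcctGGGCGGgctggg
RBBP4, chr1:32650958-32651257, plus strand: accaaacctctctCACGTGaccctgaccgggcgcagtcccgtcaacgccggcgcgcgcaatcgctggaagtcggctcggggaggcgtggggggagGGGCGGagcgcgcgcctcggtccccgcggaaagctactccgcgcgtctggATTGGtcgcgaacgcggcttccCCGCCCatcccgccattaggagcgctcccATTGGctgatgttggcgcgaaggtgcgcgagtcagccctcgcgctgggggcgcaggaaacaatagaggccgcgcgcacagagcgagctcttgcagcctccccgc
HDAC2, chr6:113971099-113971398, minus strand: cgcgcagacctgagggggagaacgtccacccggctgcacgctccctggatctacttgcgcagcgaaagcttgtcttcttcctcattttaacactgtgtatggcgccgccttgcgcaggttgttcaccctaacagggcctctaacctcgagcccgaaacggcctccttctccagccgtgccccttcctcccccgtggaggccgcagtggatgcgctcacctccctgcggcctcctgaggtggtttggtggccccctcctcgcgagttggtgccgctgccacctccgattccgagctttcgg
HDAC1, chr1:32291833-32292132, plus strand: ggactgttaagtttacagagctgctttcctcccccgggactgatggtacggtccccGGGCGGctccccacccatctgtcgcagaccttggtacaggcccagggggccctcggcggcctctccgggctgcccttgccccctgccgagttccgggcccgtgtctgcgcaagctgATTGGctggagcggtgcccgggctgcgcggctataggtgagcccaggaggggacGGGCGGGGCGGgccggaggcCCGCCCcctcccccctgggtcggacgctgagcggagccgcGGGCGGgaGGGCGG
MTA3, chr2:42493860-42494159, plus strand: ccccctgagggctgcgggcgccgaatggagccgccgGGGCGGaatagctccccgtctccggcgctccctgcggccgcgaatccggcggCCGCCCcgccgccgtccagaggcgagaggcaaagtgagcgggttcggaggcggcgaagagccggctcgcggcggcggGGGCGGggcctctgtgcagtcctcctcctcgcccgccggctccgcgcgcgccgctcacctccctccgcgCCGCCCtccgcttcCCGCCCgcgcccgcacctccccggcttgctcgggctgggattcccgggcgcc

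Letters matching the GC box were found 8 times in the RBBP7 window, 5 times in that of MTA3, 6 times in that of HDAC1 and 2 times in that of RBBP4, while the HDAC2 window held 0. Overlapping matches were counted separately. CCAAT letters were found 1 time for RBBP7, 2 times for RBBP4 and 1 time for HDAC1, and CACGTG was found in the RBBP4 window alone of the 5. Searches of the same 5 windows on both strands for the E2F letters TTTCCCGC, TTTGGCGC, TTTCGCGC and TTTGCCGC, the ETS letters CCGGAAG, the CRE letters TGACGTCA and the TATA letters TATAAA gave no match. The windows of the members that differed most in L-428 therefore shared no motif of this search that set them off from HDAC1 and RBBP4. HDAC2, in particular, held none of the letters searched.

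A window was found for 38 of the 41 measured members. Over these, 27 held GGGCGG (71.1%), against 44.5% of the windows of 27305 genes, 11 held CCAAT (28.9%, against 35.7%) and 5 held CACGTG (13.2%, against 7.41%). The ETS letters were found in 8 windows (21.1%, against 10.6%), the E2F letters in 1 (2.63%, against 3.34%), the CRE letters in 1 (2.63%, against 1.97%) and the TATA letters in 1 (2.63%, against 12.0%). The median GC content of the windows was 70.3% for the members and 58.3% for all genes. The comparison windows include those of non-coding genes, and these shares describe letters only.

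Few members reached the expression threshold, although as deposited their share was above that of all named genes in each line. In L-540, 5 of 41 exceeded 100 (12.2%, against 4.13% of the 16330 named genes), in L-428 7 (17.1%, against 6.89%) and in HDLM-2 4 (9.76%, against 3.66%). HDAC3, SAP30, MTA2 and the cluster of GATAD2B were above 100 in all lines, HDAC1 in L-540 and L-428, and RBBP7 and TBL1XR1 in L-428. The other 34 members were below 100 in each line. With quantile normalization 3 members exceeded 100 in L-428 and 5 in each other line, so the order of the lines turned. The share of all named genes above 100 was not computed with this scaling. Most members were below the threshold in each array.

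**Figure D1:**
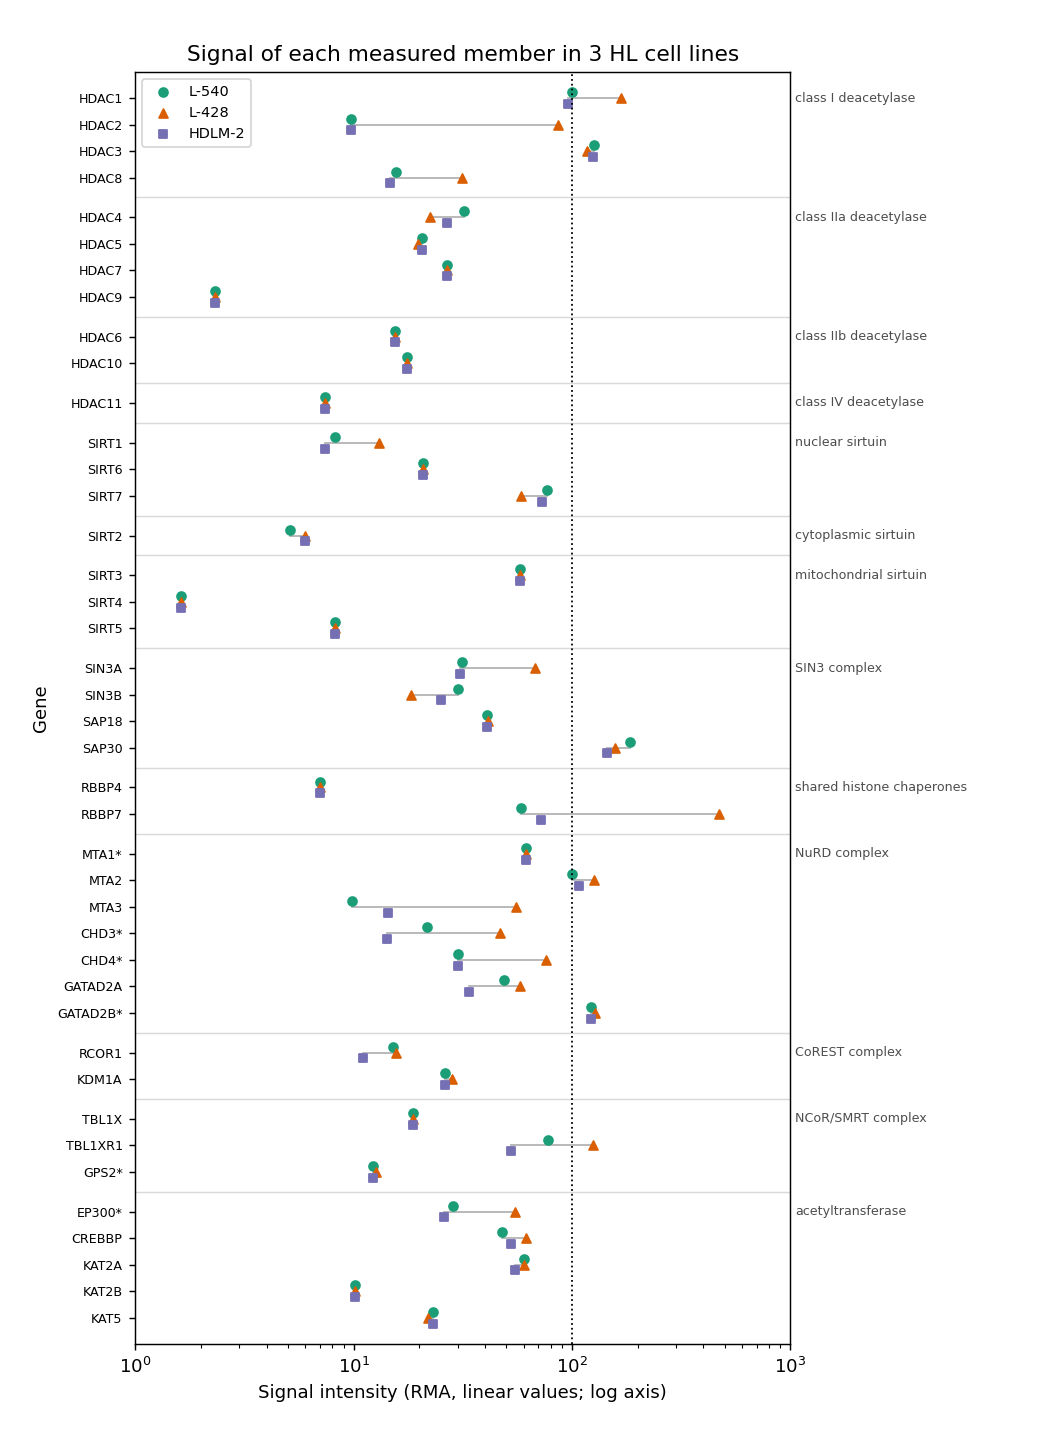
Signal intensity of the 41 measured members (log axis) in L-540 (circles), L-428 (triangles) and HDLM-2 (squares), 1 array each, grouped by role, with a dotted line at 100 and an asterisk for clusters shared with further genes. The widest spans belong to HDAC2, RBBP7 and MTA3, with L-428 at the right end, while 13 members have the same signal in all lines.

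With a 2-fold difference and the higher value above 100 as criterion, RBBP7 alone was higher in L-428 than in L-540 (1 of 41 members, against 3.40% of all named genes), and RBBP7 and TBL1XR1 were higher than in HDLM-2 (2 of 41, against 3.91%). No member was lower in L-428 than in L-540 (0.753% of all named genes) or than in HDLM-2 (0.765%). Between HDLM-2 and L-540, no member was higher (0.680%) or lower (0.998%) in HDLM-2. These shares of members are close to those of all named genes.

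Without the filter on the value, 7 members were higher in L-428 than in L-540 (17.1%, against 12.8% of all named genes) and 9 were higher than in HDLM-2 (22.0%, against 15.1%). None was lower in L-428 than in L-540 (2.84%) or than in HDLM-2 (3.21%). HDLM-2 had 0 members 2-fold above L-540 (3.06%) and 0 below (4.97%). The 2-fold differences among the members thus all had L-428 on the higher side, as had most of those among all named genes between L-428 and either other line. With the arrays shifted to a common median, 4 members were higher and 1 lower in L-428 than in L-540 (9.31% and 4.69% of all named genes), and with quantile normalization 3 and 2 (7.94% and 4.96%). Against HDLM-2, 4 were higher and 0 lower with a common median (11.3% and 5.65%), and 4 and 2 with quantile normalization (9.18% and 6.31%).

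**Figure D2:**
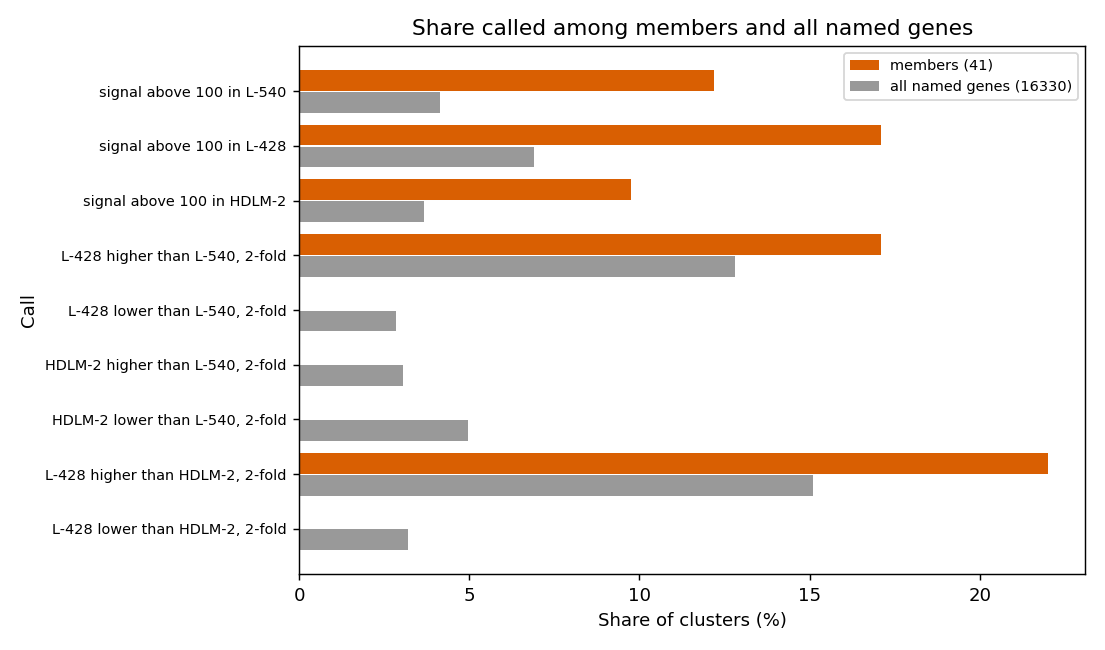
Share of the 41 members and of the 16330 named genes above 100 in each line, and share 2-fold higher or lower in each pair of lines without a filter on the value. Members were called only as higher in L-428, with 17.1% against L-540 and 22.0% against HDLM-2.

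The median log2 difference over the members was 0.01 for L-428 minus HDLM-2 and 0.00 for both remaining pairs, and over all named genes it was 0.00 in each pair. Of the members, 20 were higher and 7 lower in L-428 than in L-540, and 14 had an identical value (32.1%, 20.2% and 47.7% of all named genes), while 13 were higher and 28 lower with a common median and 11 and 30 with quantile normalization. The sign changed with a common median for 7 of the 27 members that were not tied, all with deposited log2 differences of 0.24 or less, and with quantile normalization for 9, all at 0.37 or less. In HDLM-2 minus L-540, 5 were higher, 16 lower and 20 identical (21.0%, 26.4% and 52.6% of all named genes). The counts became 28 higher and 13 lower with a common median and 31 and 9 with quantile normalization. With a common median the tied members take the shift of the array, and 3 of the 21 members not tied changed sign. With quantile normalization 8 of the 21 changed sign, all with deposited log2 differences from -0.14 to 0.00. In all 3 lines 13 members had an identical value (31.7%, against 39.2% of all named genes). Such ties were not read as equal expression. L-428 had the single highest signal for 19 members (46.3%, against 28.2% of all named genes), L-540 for 5 (12.2%, against 10.2%) and HDLM-2 for 0 (12.6% of all named genes). HDLM-2 had the single lowest signal for 12 members (29.3%, against 19.0%). These shares include tied and low signals and were not computed with either scaling. In L-428 minus HDLM-2, 21 members were higher and 6 lower as deposited (34.2% and 21.3% of all named genes). The counts were 13 and 28 with a common median and 11 and 30 with quantile normalization. In that pair, quantile normalization changed the sign of 10 of the 27 members not tied, at deposited log2 differences of up to 0.80. The 7 members expressed in any line had a median log2 difference of 0.34 for L-428 minus L-540 and 0.22 for L-428 minus HDLM-2. For the 1326 named genes expressed in any line, the same medians were 0.73 and 0.97. More named genes passed this filter in L-428 (1125) than in L-540 (674) or HDLM-2 (597), so medians of filtered genes lean to L-428 by selection. The medians are not read as a result about the members.

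The class I deacetylases are nuclear enzymes and form the catalytic core of the corepressor complexes. HDAC1 had a signal of 167 in L-428, 95.8 in HDLM-2 and 100.4 in L-540. HDAC2 had 86.5 in L-428, 9.71 in HDLM-2 and 9.71 in L-540. L-428 was thus the high line for both, by 1.67-fold over L-540 for HDAC1 and by 8.91-fold for HDAC2, although HDAC1 was lower in L-428 than in HDLM-2 with quantile normalization. Both low HDAC2 values are near the array medians, so the size of its fold is uncertain. HDAC3 had 117 in L-428, 125 in HDLM-2 and 126 in L-540 and was above 100 in each line, with at most 1.08-fold between lines.

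HDAC8, a class I enzyme that acts outside these complexes and deacetylates cohesin, had 31.3 in L-428, 14.7 in HDLM-2 and 15.6 in L-540. Its difference of L-428 from L-540 was 2.0-fold, just inside the criterion, and EP300 with 1.92-fold was just outside. With an offset of 50 before the logarithm, the log2 difference of HDAC2 between L-428 and L-540 was 1.19, against 3.16 without it, since its signals are low.

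The class IIa enzymes shuttle between nucleus and cytoplasm and bind MEF2 factors. HDAC4 had a signal of 22.4 in L-428, 26.7 in HDLM-2 and 32.1 in L-540. HDAC5 had 19.8 in L-428, 20.6 in HDLM-2 and 20.6 in L-540. HDAC7, an enzyme known from thymocytes and endothelium, had 26.9 in all lines, and HDAC9 had 2.33 in all lines, far below the array medians. L-540 was thus the high line for HDAC4, by 1.43-fold over L-428, and the remaining class IIa signals differed by at most 1.04-fold.

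HDAC6, a cytoplasmic deacetylase of tubulin, had a signal of 15.4 in all lines, and HDAC10, a polyamine deacetylase, had 17.6 in all lines. A further cluster shared by HDAC10 and MAPK12 had 22.9 in L-428, 22.9 in HDLM-2 and 23.6 in L-540. HDAC11, the class IV enzyme, had 7.41 in all lines. In total, 5 of the 7 class II and class IV enzymes were tied in all lines (against 39.2% of all named genes). None was higher in L-428 than in L-540 (against 32.1%) or than in HDLM-2 (against 34.2%). With either scaling all 7 were lower in L-428 than in both other lines, since tied values then take the shift of the array. The same share over all named genes was not computed with the scalings. None of these enzymes exceeded 100.

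Of the 7 sirtuins, none exceeded 100 in any line and 4 were tied in all lines (against 39.2% of all named genes). SIRT1, a nuclear deacetylase of histones and p53, had a signal of 13.1 in L-428, 7.41 in HDLM-2 and 8.21 in L-540. SIRT7, a nucleolar enzyme, had 58.5 in L-428, 73.2 in HDLM-2 and 77.0 in L-540. L-428 was thus the high line for SIRT1 and the low line for SIRT7, by 1.59-fold and 1.32-fold against L-540. With quantile normalization SIRT7 was at least 2-fold lower in L-428 than in either other line.

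SIRT6, a chromatin-bound enzyme involved in DNA repair, had a signal of 20.8 in all lines. SIRT2, a tubulin deacetylase, had 5.99 in L-428, 5.99 in HDLM-2 and 5.09 in L-540. Of the mitochondrial sirtuins, SIRT3, the main deacetylase of that organelle, had 57.7 in all lines, SIRT5, which removes succinyl and malonyl groups, had 8.20 in all lines and SIRT4 had 1.62 in all lines, near the lowest signal of the arrays.

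The SIN3 complex is built on the scaffolds SIN3A and SIN3B, which replace each other. SIN3A had a signal of 67.5 in L-428, 30.7 in HDLM-2 and 31.4 in L-540. SIN3B had 18.3 in L-428, 25.0 in HDLM-2 and 30.1 in L-540. L-428 was the high line for SIN3A, by 2.15-fold over L-540, and the low line for SIN3B, by 1.64-fold. Shifting the arrays to a common median brought SIN3A below 2-fold and SIN3B to at least 2-fold lower in L-428 than in L-540.

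SAP30, a bridging subunit of SIN3, had a signal of 158 in L-428, 144 in HDLM-2 and 185 in L-540, and was above 100 in each line. SAP18, a subunit that also occurs on spliced RNA, had 41.1 in L-428, 40.7 in HDLM-2 and 40.7 in L-540. Of the 4 subunits, L-540 was the high line for SAP30 and SIN3B and L-428 for SIN3A and, by 1.01-fold, SAP18, which was lower in L-428 than in both other lines with either scaling.

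RBBP4 and RBBP7 are WD-repeat proteins that hold histones in the SIN3 and NuRD complexes. RBBP7 had a signal of 473 in L-428, 72.0 in HDLM-2 and 58.7 in L-540. It was 8.06-fold higher in L-428 than in L-540 and 6.58-fold higher than in HDLM-2, and was the only member to exceed 200. RBBP4 had 7.03 in all lines, and a further cluster shared by RBBP4 and SYNC had 3.18 in L-428, 3.18 in HDLM-2 and 3.13 in L-540. The signal of RBBP4 is below the median of each array and is not read as an absence of its RNA.

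The NuRD complex joins HDAC1 and HDAC2 to the remodelling helicases CHD3 and CHD4. Of its 7 subunits listed apart from the histone chaperones, 6 were higher in L-428 than in L-540 and 1 was tied. Of all named genes, 32.1% were higher and 47.7% identical, and of those above 100 in at least 1 line 70.0% were higher. The median log2 difference of the subunits was 0.34, against 0.00 over all named genes and 0.73 over those above 100. The genes above 100 were chosen by their signal and the subunits were not, so this background is unlike the subunits. With the arrays shifted to a common median 4 subunits were higher and 3 lower, and with quantile normalization 3 were higher and 4 lower. MTA3 had a signal of 55.6 in L-428, 14.4 in HDLM-2 and 9.79 in L-540, and was 5.68-fold higher in L-428 than in L-540. Its L-540 signal is near the array median and no line exceeded 100, so the size of this fold is uncertain. With an offset of 50 before the logarithm, its log2 difference between L-428 and L-540 was 0.82, against 2.50 without it. MTA2 had 126 in L-428, 108 in HDLM-2 and 100.2 in L-540, but it was lower in L-428 than in HDLM-2 with either scaling and lower than in L-540 with quantile normalization. The cluster of MTA1, shared with TEX22, had 61.5 in all lines. Of the MTA subunits, MTA3 had the largest fold between L-428 and L-540 as deposited and with either scaling.

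The cluster of CHD4, shared with the small RNA gene SCARNA11, had a signal of 75.7 in L-428, 30.1 in HDLM-2 and 30.1 in L-540. That of CHD3, shared with SCARNA21, had 46.7 in L-428, 14.2 in HDLM-2 and 21.6 in L-540. Both shared clusters were highest in L-428, by 2.52-fold and 2.16-fold over L-540, and the part of the helicases in them cannot be told apart from that of the small RNA genes. GATAD2A, which links the helicase to the deacetylase part, had 57.5 in L-428, 33.7 in HDLM-2 and 48.6 in L-540. The cluster of GATAD2B had 128 in L-428, 122 in HDLM-2 and 122 in L-540. The annotation pairs it also with PLIN2, a gene of another chromosome, so its signal above 100 is not assigned to GATAD2B.

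The CoREST complex couples the deacetylases to KDM1A, a demethylase of histone H3. KDM1A had a signal of 28.3 in L-428, 26.1 in HDLM-2 and 26.1 in L-540. RCOR1, its scaffold, had 15.6 in L-428, 11.1 in HDLM-2 and 15.1 in L-540. Neither differed by more than 1.41-fold between any pair of lines.

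In the NCoR/SMRT complex, TBL1XR1, an exchange factor for corepressors, had a signal of 125 in L-428, 52.4 in HDLM-2 and 77.9 in L-540. It was 2.38-fold higher in L-428 than in HDLM-2, and was below 2-fold with the arrays shifted to a common median, at 0.89 on the log2 scale, and with quantile normalization, at 0.44. Its paralog TBL1X had 18.7 in all lines. The cluster of GPS2, shared with NEURL4, had 12.7 in L-428, 12.3 in HDLM-2 and 12.3 in L-540. With HDAC3, given above, TBL1XR1 was the member of this complex whose deposited signal spanned the widest range.

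The acetyltransferases oppose the deacetylases. The cluster of EP300, shared with MIR1281, had a signal of 54.7 in L-428, 26.0 in HDLM-2 and 28.6 in L-540. CREBBP, its paralog, had 61.6 in L-428, 52.4 in HDLM-2 and 47.7 in L-540. L-428 was the high line for both, by 1.92-fold and 1.29-fold over L-540, but CREBBP was lower in L-428 than in HDLM-2 with either scaling, and lower than in L-540 with quantile normalization. KAT2A, the enzyme of the SAGA complex, had 60.4 in L-428, 54.6 in HDLM-2 and 60.4 in L-540, and its paralog KAT2B had 10.1 in all lines.

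KAT5, the catalytic subunit of the NuA4 complex, had a signal of 21.8 in L-428, 23.1 in HDLM-2 and 23.1 in L-540 in its own cluster. A cluster shared by KAT5 and RNASEH2C had 85.8 in L-428, 135 in HDLM-2 and 137 in L-540, and it was not used for KAT5 since it cannot be assigned. Both clusters had their lowest value in L-428.

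**Figure D3:**
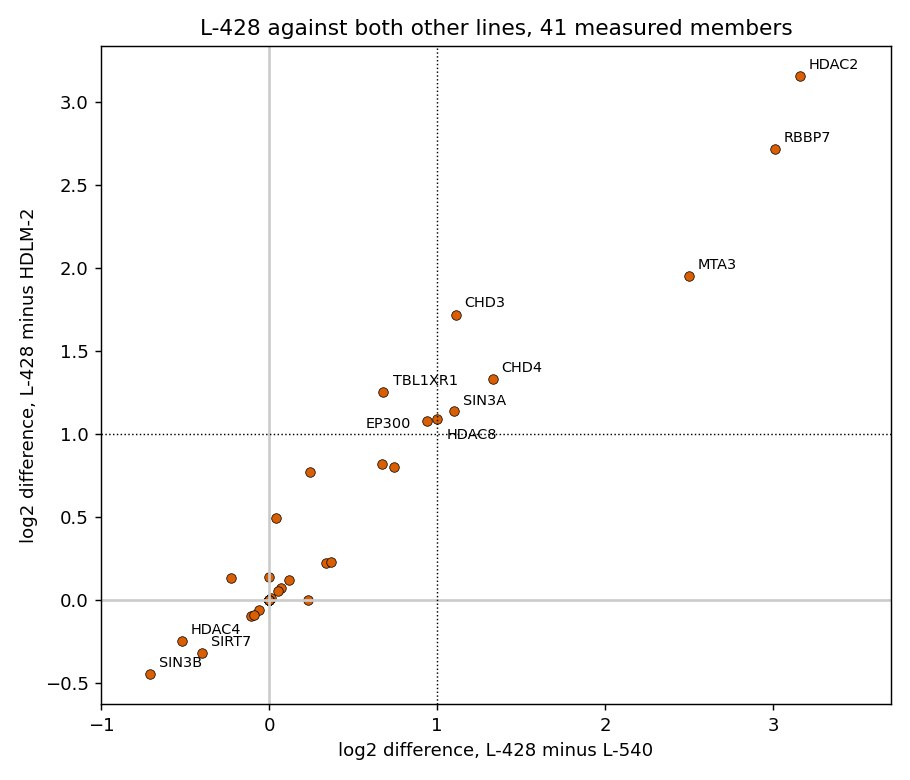
Log2 difference of L-428 from L-540 (horizontal axis) and from HDLM-2 (vertical axis) for the 41 measured members, with dotted lines at a 2-fold difference. Both axes share the L-428 array. HDAC2, RBBP7 and MTA3 lie farthest from 0, at 3.16, 3.01 and 2.50 against L-540, and SIN3B lies lowest at -0.71.

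Paralogs that occupy the same place in a complex differed in how far L-428 stood from L-540. The log2 difference was 3.16 for HDAC2 and 0.74 for HDAC1. It was 3.01 for RBBP7 and 0.00 for RBBP4, and 2.50 for MTA3 and 0.34 for MTA2. The signals of RBBP4, the low signals of HDAC2 and the L-540 signal of MTA3 lie near or below the array medians. These gaps are therefore differences between listed values and not measured sizes. CHD3 and CHD4 had near values of 1.11 and 1.33, and GATAD2A and GATAD2B had 0.24 and 0.07. SIN3A and SIN3B had opposite signs, with 1.10 and -0.71. Gaps between paralogs are unaffected by a shift of a whole array, but each cluster has its own probes and 1 array per line gives them no error.

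**Figure D4:**
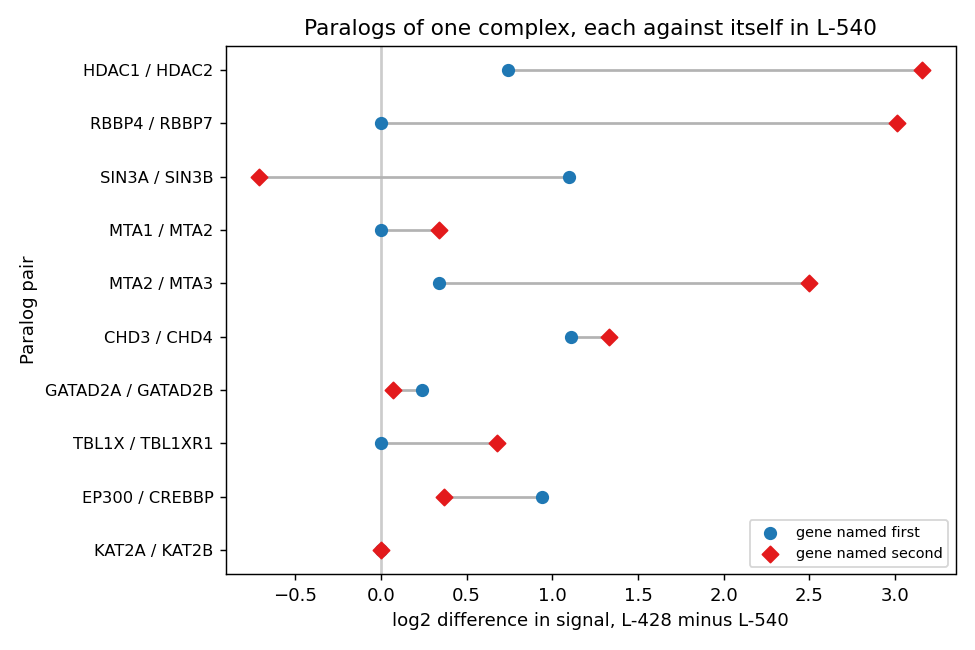
Log2 difference in signal of L-428 minus L-540 for pairs of paralogs, with circles for the gene named first and diamonds for the gene named second. The gap is 3.01 between RBBP4, whose signals lie below the array medians, and RBBP7, and 2.42 between HDAC1 and HDAC2, and KAT2A and KAT2B coincide at 0.00.

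The size of these differences depended on the scaling of the arrays, and 3 members kept at least a 2-fold difference of L-428 from both other lines with either scaling. The log2 difference from L-540 was 2.85 for HDAC2, 2.70 for RBBP7 and 2.19 for MTA3 with the arrays shifted to a common median, and 2.59, 2.53 and 1.96 with quantile normalization. From HDLM-2 it was 2.51, 2.01 and 1.29 with quantile normalization. CHD3 kept 2-fold against HDLM-2 alone, with 1.07 after quantile normalization. HDAC8, SIN3A, TBL1XR1 and EP300 were below 2-fold with either scaling, and CHD4 kept 1.02 against L-540 with the common median and had 0.72 with quantile normalization.

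**Figure D5:**
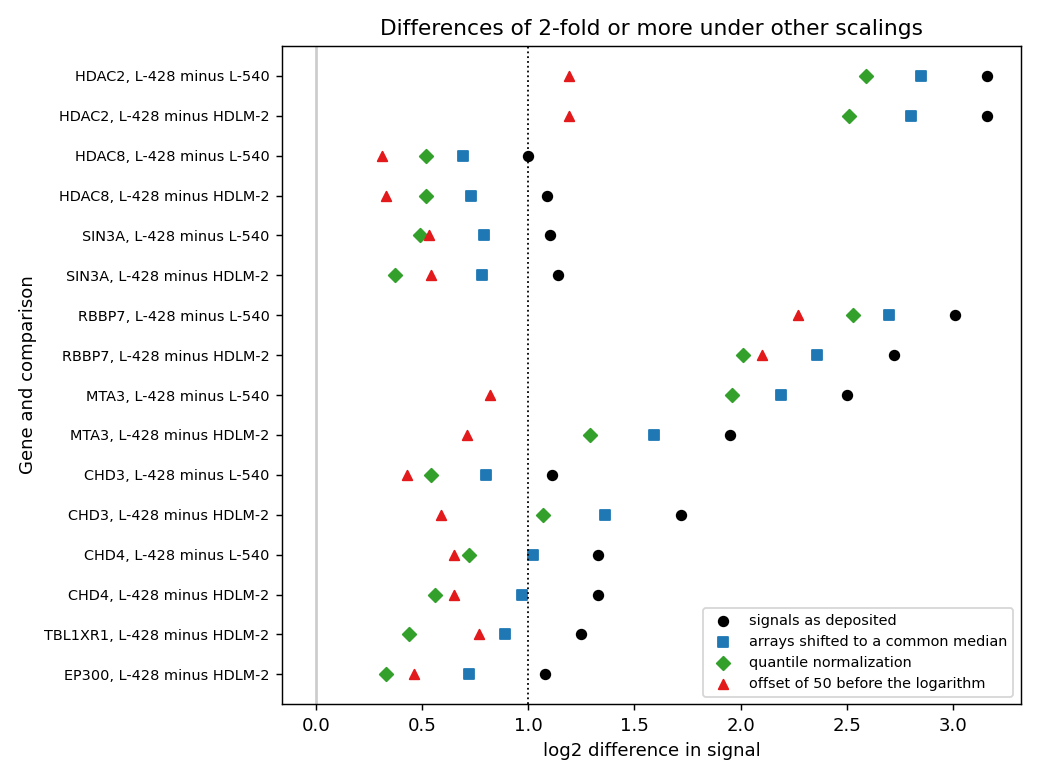
Log2 difference in signal of members with at least a 2-fold difference between 2 lines, as deposited (circles), with the arrays shifted to a common median (squares), with quantile normalization (diamonds) and with an offset of 50 (triangles), with a dotted line at 2-fold. RBBP7 stays right of the line in every setting, HDAC2 likewise, and MTA3 except with the offset, where it has 0.82 and 0.71.

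Genes that work with the members were taken from lists of further subunits, readers and cofactors. Of 26 further corepressor subunits measured, 2 were 2-fold higher in L-428 than in L-540 with a value above 100 (against 3.40% of all named genes) and 0 lower (against 0.753%), with a median log2 difference of 0.05. With either scaling neither met this criterion. They were CDK2AP1, a NuRD subunit, with 767 in L-428, 381 in HDLM-2 and 377 in L-540, and GSE1, a CoREST-associated protein, with 109.7 in L-428, 39.1 in HDLM-2 and 46.3 in L-540. Of 39 further acetyltransferases and their subunits, 1 was higher in L-428 than in L-540 and 2 were higher than in HDLM-2 (against 3.91%). HAT1, which acetylates new histones and is itself bound to RBBP7, had 178 in L-428, 14.4 in HDLM-2 and 43.1 in L-540. MORF4L2, a NuA4 subunit, had 133 in L-428, 20.9 in HDLM-2 and 77.7 in L-540, and did not meet the criterion with quantile normalization.

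Of 25 readers of acetyl-lysine and related chromatin proteins, 4 were higher in L-428 than in L-540 (against 3.40% of all named genes) and none was lower (against 0.753%), and these 4 met the criterion with either scaling too. SMARCA2, an ATPase of the SWI/SNF complex, had a signal of 247 in L-428, 134 in HDLM-2 and 20.6 in L-540. PHIP, a bromodomain protein, had 179.8 in L-428, 18.1 in HDLM-2 and 23.7 in L-540. BAZ2A, part of the silencing complex of ribosomal genes, had 193 in L-428, 34.4 in HDLM-2 and 40.7 in L-540. SMARCA2 was the one reader that was also 2-fold higher in HDLM-2 than in L-540 with a value above 100, so its low line was L-540. TRIM33 had 171 in L-428, 45.1 in HDLM-2 and 45.1 in L-540.

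Among 18 DNA-binding factors that recruit corepressors, PRDM1, the plasma cell repressor, had a signal of 64.4 in L-428, 39.0 in HDLM-2 and 242 in L-540. It was the only gene of this list to meet the criterion, and L-540 was its high line (lower in L-428 for 0.753% and in HDLM-2 for 0.998% of all named genes). Of 14 genes of NAD metabolism, NAMPT, the key enzyme of NAD salvage that supplies sirtuins, had 179 in L-428, 46.7 in HDLM-2 and 44.5 in L-540. PARP1, which consumes NAD, had 115 in L-428, 22.8 in HDLM-2 and 31.3 in L-540. L-428 was the high line for both (2 of 14, against 3.40% of all named genes over L-540 and 3.91% over HDLM-2). No other gene of this list met the criterion, and PARP1 did not meet it with either scaling.

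Of 10 genes of acetyl-CoA supply, CS, the citrate synthase, had a signal of 199.6 in L-428, 40.9 in HDLM-2 and 37.8 in L-540. ACLY, which makes cytosolic acetyl-CoA from citrate, had 399 in L-428, 191 in HDLM-2 and 209 in L-540. SLC25A1, the mitochondrial citrate carrier, had 71.5 in L-428, 118 in HDLM-2 and 55.8 in L-540. Thus HDLM-2 was the high line for SLC25A1 and L-428 for the other named genes of this list, although ACLY was not 2-fold above HDLM-2 with either scaling. Of the 10, 1 met the criterion as higher in L-428 than in L-540 (against 3.40% of all named genes). Higher in L-428 than in HDLM-2 were 2 (against 3.91%), and higher in HDLM-2 than in L-540 was 1 (against 0.680%).

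Proliferation genes were also high in L-428. Of 15 such genes, 10 were above 100 in L-428, 2 in HDLM-2 and 1 in L-540, and their summed signal was 2529.6 in L-428, 731 in HDLM-2 and 760.0 in L-540. Between L-428 and L-540, 9 were 2-fold higher with a value above 100 (against 3.40% of all named genes) and 0 lower, with a median log2 difference of 1.93. With a common median 8 were higher (2.31%), and with quantile normalization 7 (1.64%). Against HDLM-2, 10 of these genes were higher (3.91%), but 6 with a common median (2.73%) and 5 with quantile normalization (1.75%). Their part in the differences of RBBP7, HDAC2 and MTA3 was not tested.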

How the data were processed

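RNA of 3 HL cell lines was analyzed on Affymetrix Human Exon 1.0ST arrays, 1 per line. The deposited values are linear signal intensities, which the authors made with RMA in Expression Console, according to the processing notes of the submitters. This algorithm corrects background, normalizes quantiles and takes a median polish over the probes. The notes name the build hg18. A joint run with further arrays is described in the paper, and whether it produced the deposited values is not stated in the sources used here. Array medians still differed.

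Clusters were paired with genes through the platform annotation, with symbols brought up to date by Entrez number from RefSeq (GRCh38.p14). A gene took its own cluster with the highest mean, or a shared cluster where it had no own one, and the same rule gave 16330 clusters for all named genes. The listed genes were matched to 45 clusters. Of the 4 that were not used as a member's main value, 3 are given in the text and 1, shared with a Y-linked gene, is not reported here. Differences are log2 ratios of deposited signals without an offset, called at 2-fold, with the higher value above 100 where stated. No gene was called by a test, as 1 array per line allows none, and the number of arrays limits the precision. Depth has no meaning for these arrays. All members were named, and of each related list up to 4 genes above 100 with a 2-fold difference, by the size of it. TNFRSF8 was named outside this rule as a marker, and CCL22 and FSCN1 after their values were seen. The gene set, lists and alternatives were drawn up with earlier results of these data known, although the rule that lists the members uses no measured value. Promoter windows came from RefSeq, 1 per gene, at its annotated start where such a window was listed and otherwise the first listed. The code of the calls was checked on simulated data without noise, which does not measure how reliable a call from 1 array is. Scripts ran in Python 3.11.15 with pandas 2.3.3, numpy 2.4.6 and, for plots, matplotlib 3.10.9.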

Additional observations from a re-analysis of the deposited data

How the results depend on the processing

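The alternatives were thresholds of 50 and 200, folds of 1.5 and 4, no filter on the value, an offset of 50, arrays shifted to a common median, quantile normalization of the 3 arrays, clusters with 1 gene only, the cluster with the lowest mean, members above 100 in at least 1 line and, chosen after seeing the data, the cluster with the highest mean including shared ones and both scalings for the related lists. No paired analysis was possible because there were no replicates.

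With a threshold of 50, 18 members were above it in L-428, 12 in HDLM-2 and 11 in L-540, and with 200 there were 1, 0 and 0. With quantile normalization, 3 were above 100 in L-428. Members higher in L-428 than in L-540 numbered 5 with the threshold of 50, 3 with a fold of 1.5 and 7 with no filter (against 12.8% of all named genes). Members higher in L-428 than in HDLM-2 numbered 7 with the threshold of 50 and 9 with no filter (against 15.1% of all named genes). They numbered 1 each with the threshold of 200, a fold of 4, an offset of 50, a common median (2.73%) and quantile normalization (1.75%). The other counts given here have no computed share over all named genes, and are not read as a result about the members. The cause of these changes was not tested where the setting itself does not give it.

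Of 60 recomputed counts of differences, 50 stayed within 1.5 times the reported one, most of them at 0. All 21 recomputed medians stayed within a factor of 1.5 of the reported ones, which is a wide margin beside medians near 0. Of 18 recomputed counts above the threshold, 7 moved by more than 1.5 times. Of 48 recomputed differences of single members of at least 2-fold, 24 moved by more than 1.5 times and 0 changed direction. Without a filter, 20 members were higher and 7 lower in L-428 than in L-540 as deposited, against 13 and 28 with a common median and 11 and 30 with quantile normalization, since tied values then take the shift of the array. SIN3B with a common median, and SIN3B and SIRT7 with quantile normalization, were 2-fold lower in L-428 than in L-540.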
